A study of Mus musculus with 4 samples.

Results

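The genes of 5 core pluripotency factors, Pou5f1, Nanog, Sox2, Klf4 and Esrrb, were examined for RNA crosslinked to the zinc finger transcription factor YY1 in mouse embryonic stem cells. The genes were given as spans in the mm9 build, and every peak with at least 1 base within 20 kb of a span was taken. This gave 12 of the 12053 peaks in the deposited lists, of which 6148 were in the plus-strand list and 5905 in the minus-strand list.

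The peaks came from 1 CLIP-seq library, a method in which RNA is joined to a protein by ultraviolet light, recovered with that protein and sequenced. The cells carried the biotin ligase BirA and a tagged YY1 (BirA BioYY1), were grown on irradiated mouse embryonic fibroblasts with LIF and serum, and were crosslinked at 254 nm. Nuclei were purified, and tagged protein was drawn out on streptavidin beads. The series has 3 further groups of 1 library each: cells with BirA only as the control for YY1, cells with Bio-Oct4 and BirA, and BirA cells as the control for these. Those libraries were not analysed here. All cells of the series thus carried BirA, and no source used here names the promoters that drive the tagged proteins or the number of clones. The study asked where the RNA bound by transcription factors arises, with attention to the regulatory elements of genes.

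The 5 factors form the centre of the network that keeps embryonic stem cells undifferentiated. Pou5f1 encodes OCT4, a POU domain factor that binds DNA together with SOX2, an HMG-box protein. Nanog is a homeodomain protein, Klf4 is a zinc finger factor known from reprogramming, and Esrrb is an orphan nuclear receptor that sustains self-renewal. Active promoters are often transcribed in both directions, giving a gene's own RNA from one strand and short upstream antisense RNA from the other. A sense peak below lies on the strand of the gene, and an antisense peak on the opposite strand. Both words name strand only, and whether a peak outside a span belongs to a neighbouring gene was not tested.

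All 5 genes had at least 1 sense peak inside their span, and none had a peak wholly upstream. Of the 12 peaks, 10 were sense, a share of 83.3% (exact Clopper-Pearson 95% interval 51.6 to 97.9). The interval treats the 12 peaks as independent, though they lie at only 5 genes. With same-strand peaks within 100 bases joined, the share was 80% of 10 peaks. Nanog and Esrrb had 1 antisense peak each, and Pou5f1, Sox2 and Klf4 had no antisense peak within 20 kb. By position, 9 sense peaks and 1 antisense peak shared bases with a gene span, and 1 sense peak and 1 antisense peak lay downstream. Strand was read from the names of the lists. If these named the strand opposite to the RNA, the sense share would be 16.7%.

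**Figure D1:**
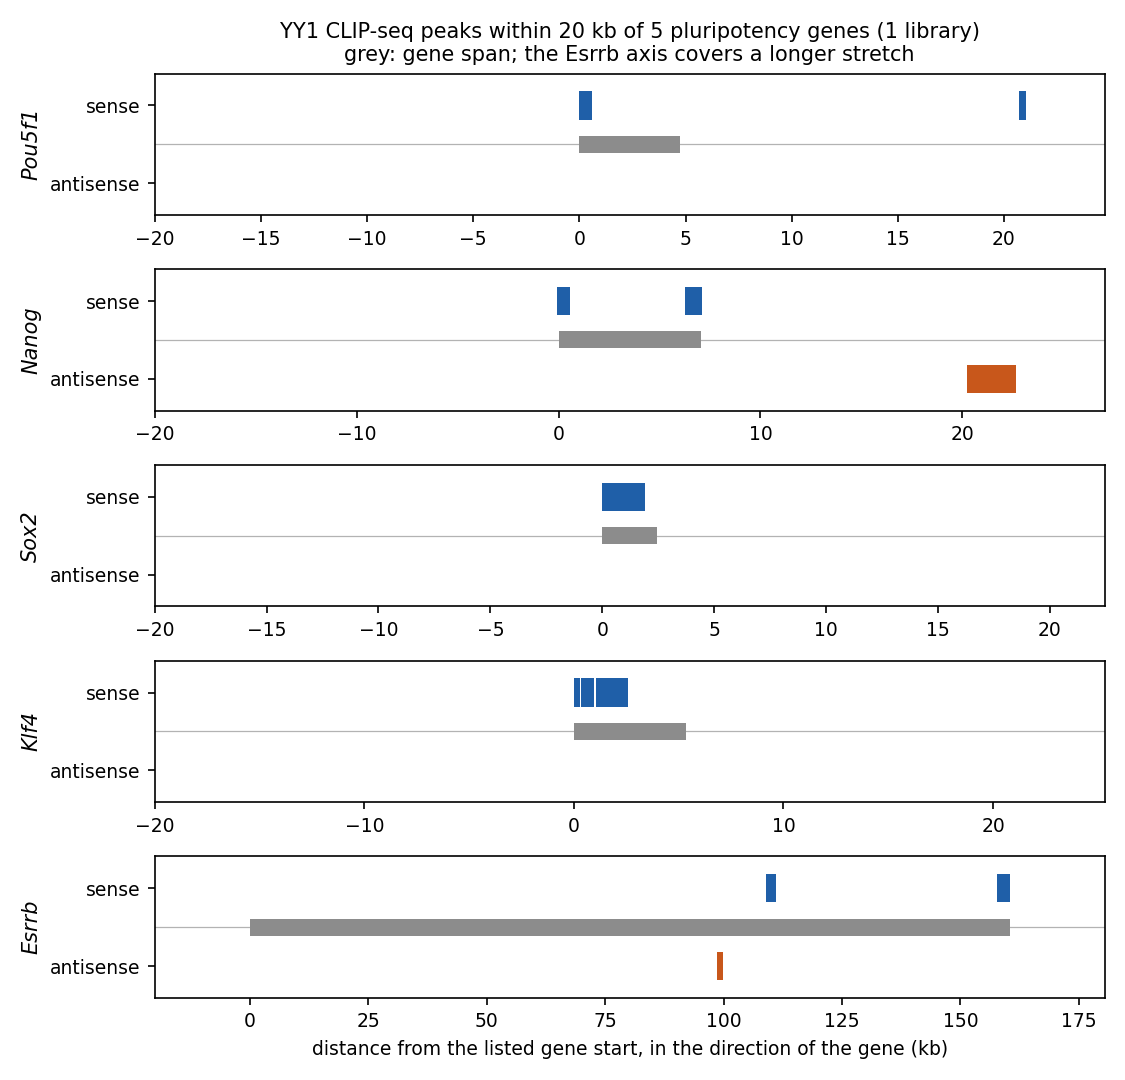
Each panel shows 1 gene, with the distance from its listed start in kb along its own direction on the x axis, the gene span in grey, sense peaks in blue above it and antisense peaks in orange below it. No panel has a peak wholly to the left of its gene start, and the Esrrb panel covers 200.434 kb against 42.456 to 47.054 kb for the others.

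Peaks lay on the listed start of 3 genes and directly after that of Sox2, so the sequences before these starts are shown first. They are the 250 bases before the outermost RefSeq start of each gene, 5′ to 3′ on the gene's strand, in the build GRCm38.p6, which differs from the mm9 build of the peaks. The remark on a peak beside each sequence refers to the gene start listed in mm9, which was not matched to a RefSeq start. RefSeq lists a further start 76 bases into Nanog and 2775 bases into Pou5f1. All 5 genes matched the RefSeq table by symbol. Capitals mark CCAT, the core of the DNA motif of YY1, or its reverse complement ATGG, and overlapping matches were both counted.
Pou5f1, chr17:35505782-35506031, plus strand, peak on the mm9 start: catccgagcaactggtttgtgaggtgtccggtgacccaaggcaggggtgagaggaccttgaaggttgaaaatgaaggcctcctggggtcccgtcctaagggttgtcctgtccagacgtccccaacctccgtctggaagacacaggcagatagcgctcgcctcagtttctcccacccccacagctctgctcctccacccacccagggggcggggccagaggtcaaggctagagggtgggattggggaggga
Nanog, chr6:122707239-122707488, plus strand, peak on the mm9 start: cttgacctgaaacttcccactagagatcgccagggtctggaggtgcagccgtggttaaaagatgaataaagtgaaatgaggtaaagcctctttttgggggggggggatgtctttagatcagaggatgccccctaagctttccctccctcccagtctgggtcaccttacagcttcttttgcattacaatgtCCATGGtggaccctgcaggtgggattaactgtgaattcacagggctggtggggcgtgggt
Sox2, chr3:34649745-34649994, plus strand, peak directly after the mm9 start: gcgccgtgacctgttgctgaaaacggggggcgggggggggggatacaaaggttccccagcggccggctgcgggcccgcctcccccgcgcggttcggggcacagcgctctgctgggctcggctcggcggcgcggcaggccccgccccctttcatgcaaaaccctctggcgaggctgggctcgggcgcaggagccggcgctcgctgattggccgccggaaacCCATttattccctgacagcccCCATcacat
Klf4, chr4:55532476-55532725, minus strand, peak on the mm9 start: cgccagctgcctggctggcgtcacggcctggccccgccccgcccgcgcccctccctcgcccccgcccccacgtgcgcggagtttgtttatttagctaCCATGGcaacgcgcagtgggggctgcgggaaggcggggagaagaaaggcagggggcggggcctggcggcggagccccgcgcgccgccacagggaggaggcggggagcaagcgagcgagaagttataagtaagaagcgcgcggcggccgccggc
Esrrb, chr12:86360867-86361116, plus strand, no peak near the mm9 start: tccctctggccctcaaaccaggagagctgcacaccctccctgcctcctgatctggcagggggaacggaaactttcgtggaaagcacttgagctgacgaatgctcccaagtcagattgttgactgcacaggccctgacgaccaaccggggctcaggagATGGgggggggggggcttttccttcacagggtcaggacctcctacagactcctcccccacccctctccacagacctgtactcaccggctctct

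The core motif was in 4 of these 5 stretches. Sox2 had 2 matches, beginning 30 and 9 bases before the start. Nanog and Klf4 each had 2 overlapping matches in the letters CCATGG, beginning 60 and 153 bases before the start. Esrrb had 1, beginning 93 bases before it, and Pou5f1 had 0. Before the further Pou5f1 start there were 4 matches, the nearest beginning 52 bases from it. Of all 32851 RefSeq promoter stretches of the same length, 77.4% held the core motif, so its presence sets these genes apart little. The longer motif GCCATNTT or its reverse complement AANATGGC was in none of the 5 and in 3.91% of all stretches. Base composition differed more. Klf4 had 74% G and C with 32 CpG, and Sox2 72% with 27 CpG, against a median of 52.4% and 6 CpG over all stretches. Pou5f1 had 62% with 8 CpG, Esrrb 60.8% with 6, and Nanog 52% with 3. The genes with a peak at the start were thus both the CpG-rich and the CpG-poor ones of the 5.

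Pou5f1, a plus-strand gene, spans 4746 bases of chromosome 17, from 35642977 to 35647722. Its sense peak ran from 35642954 to 35643594, a width of 641 bases. It began 23 bases before the listed start and ended 617 bases after it, so it covered 13.0% of the span. No peak lay in the remaining 4128 bases of the gene. A second plus-strand peak, 322 bases wide from 35663688 to 35664009, lay 15965 bases past the gene end. In the RefSeq gene order the next genes downstream are Tcf19, on the minus strand, and Cchcr1, on the plus strand like this peak. The peak was not assigned to either, since that order belongs to another build. It counts as a Pou5f1 sense peak by strand and distance only. No minus-strand peak lay closer than 147.77 kb downstream or 341.158 kb upstream.

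Nanog, also on the plus strand, spans 7054 bases of chromosome 6, from 122657586 to 122664639. It had a sense peak at each end. The first, from 122657505 to 122658158, was 654 bases wide, began 81 bases before the listed start and ended 572 bases after it. The second, from 122663860 to 122664709, was 850 bases wide and reached 70 bases past the listed end. Between them 5701 bases of the gene had no peak, and the 2 peaks together covered 19.2% of the span. The antisense peak lay outside the gene, from 122677795 to 122680232, and began 13155 bases past its end. At 2438 bases it was the second widest of the 12 peaks. It was followed on the same strand by 3 more peaks that were beyond the limit, of 741, 703 and 402 bases, the nearest of them 20580 bases past the gene end. That one lay just outside the limit, and the Pou5f1 peak at 15965 bases was the farthest inside it. The next gene downstream in the RefSeq order is Slc2a3, which encodes a glucose transporter and whose strand was not listed. The minus-strand peaks were not assigned to it for the same reason as above. The antisense peak is counted at Nanog by strand and distance only, and whether it arises from Slc2a3 was not tested.

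Sox2, on the plus strand as well, spans 2456 bases of chromosome 3, from 34548927 to 34551382, and had the most isolated peak. The single peak, from 34548932 to 34550839, was 1908 bases wide. It began 5 bases after the listed start and ended 543 bases before the listed end, covering 77.7% of the span, the highest share of the 5 genes. Sox2 is a gene without introns, so its whole span is exonic. The nearest plus-strand peaks outside it were 580.396 kb upstream and 1102 kb downstream, and the nearest minus-strand peaks 1785 kb and 1305 kb away. In the RefSeq table Sox2 overlaps Sox2ot, a long noncoding RNA gene whose strand the tables used here do not list, and the peak was not assigned to one or the other.

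Klf4, the only minus-strand gene of the 5, spans 5328 bases of chromosome 4, from 55540010 to 55545337, and had 3 sense peaks in a row. Along the gene, the first ran from 55545348 to 55545036, began 11 bases before the listed start and was 313 bases wide. The second, from 55545018 to 55544374, was 645 bases wide, and the third, from 55544284 to 55542760, 1525 bases. They widened with distance from the start, and the gaps between them were 17 and 89 bases. Together they covered 46.4% of the span, and the last 2750 bases had no peak. Gaps this small were uncommon. Of all 12009 gaps between same-strand neighbours, 59 (0.491%) measured at most 17 bases, and 4.57% of all peaks had a same-strand neighbour within 100 bases. With neighbours within 100 bases joined, the 3 peaks became 1 and the total for the 5 genes fell from 12 to 10. In the RefSeq order the first gene upstream of Klf4 is Gm12506, a long noncoding RNA gene on the opposite strand, yet the nearest plus-strand peak upstream was 2335 kb away.

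Esrrb is the longest of the 5 genes, 160.434 kb of chromosome 12 read from the plus strand, from 87702067 to 87862500, and its peaks lay in the later part of the gene. The first sense peak, from 87811112 to 87813159, was 2048 bases wide and began 109.045 kb after the listed start. The second, from 87859785 to 87862559, was 2775 bases wide, the widest of the 12, and reached 59 bases past the listed end. The sense peaks were 46.625 kb apart and covered 2.97% of the span, the lowest share of the 5 genes. The antisense peak, from 87800704 to 87801933, was 1230 bases wide and lay 9178 bases before the first sense peak, so the pair was divergent. In the RefSeq table a minus-strand long noncoding RNA gene, Gm40483, overlaps Esrrb, and the antisense peak was not set against its position, which belongs to another build. In mm9 the antisense peak began 98.637 kb after the listed start, and the nearest one before the start was 543.292 kb away. RefSeq lists a second start for Esrrb, 60.527 kb after the first in GRCm38.p6. Exon positions in mm9 were not used here, so exonic and intronic peaks were not separated.

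**Figure D2:**
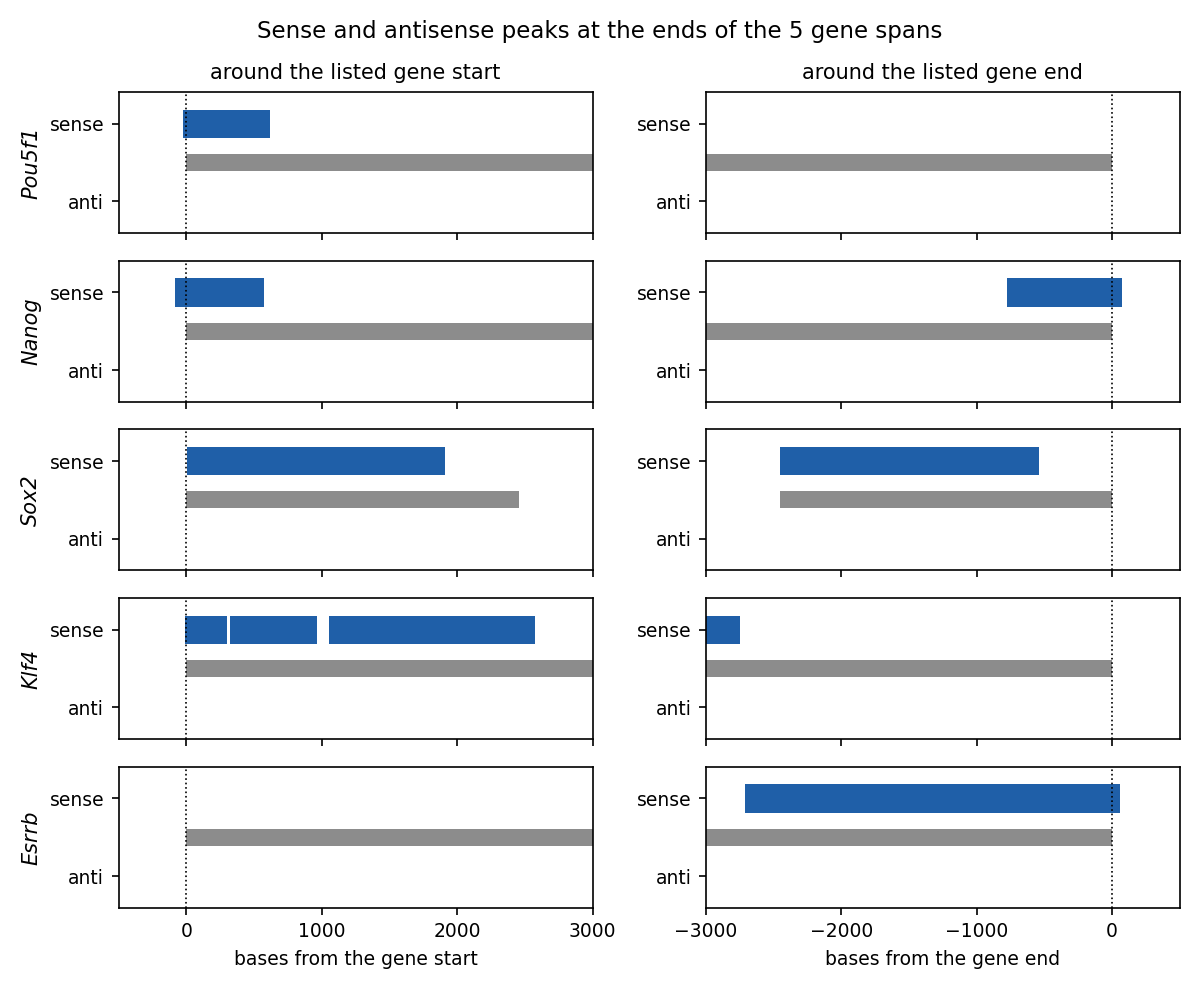
Left panels show bases from the listed gene start and right panels bases from the listed gene end, with the gene span in grey and sense peaks in blue. Peaks sit on the starts of Pou5f1, Nanog and Klf4 and begin 5 bases after that of Sox2, while the ends of Nanog and Esrrb are covered and the start of Esrrb is not.

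Listed starts and ends were therefore reached in different genes. A sense peak covered the listed start in 3 of 5 genes, or began within 10 bases of it in 4 of 5 when Sox2 is counted. The 3 peaks on a start reached only 11 to 81 bases upstream of it and ran at least 301 bases into the gene. A sense peak covered the listed end in 2 of 5 genes, Nanog and Esrrb. Nanog was the only gene of the 5 with both ends covered. Its peaks at the start and the end were 654 and 850 bases wide.

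No peak lay wholly in upstream sequence on either strand, though the peaks on 3 starts reached up to 81 bases into it. In the 100 kb that make up the 20 kb before each of the 5 starts, 0 peaks lay wholly upstream, which allows up to 3 peaks, or 3 per 100 kb, by a one-sided limit of about 95%. All peaks had a density of 0.471 per 100 kb (95% interval 0.462 to 0.479, counting error only), so a count of 0 in 100 kb does not show fewer upstream peaks than elsewhere. The nearest sense peak upstream was between 57.536 kb (Esrrb) and 1318 kb (Klf4) away, with a median of 389.991 kb. The nearest antisense peak upstream was between 220.766 kb (Nanog) and 2335 kb (Klf4) away, with a median of 543.292 kb. Since read depth is unknown, so is the level of upstream RNA that this library could have shown.

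**Figure D3:**
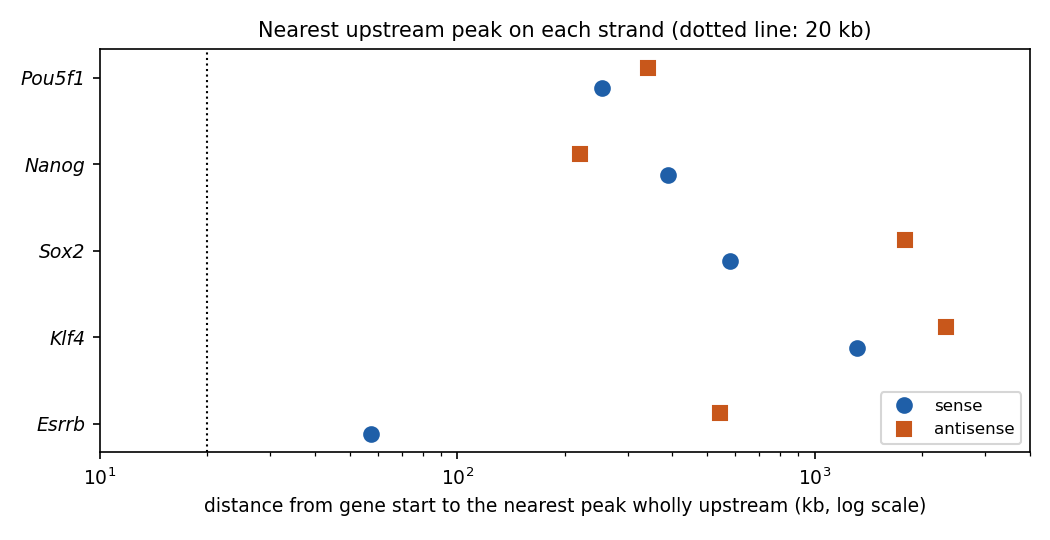
The x axis gives the distance in kb, on a log scale, from each gene start to the nearest peak wholly upstream, with sense peaks as blue circles and antisense peaks as orange squares. All 10 points lie to the right of the dotted line at 20 kb, the closest at 57.536 kb for Esrrb.

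The windows of the 5 genes were denser in peaks than the genome at large. The 12 peaks lay in 380.018 kb, a density of 3.16 per 100 kb (exact Poisson 95% interval 1.63 to 5.52), 6.71 times the density of all peaks. The 4 shorter genes alone had 5.01 per 100 kb. By gene the density was 6.62 for Klf4, 6.38 for Nanog, 4.47 for Pou5f1, 2.36 for Sox2 and 1.50 for Esrrb. The exact Poisson 95% intervals of all 5 overlapped, from 0.309 to 4.37 for Esrrb to 1.36 to 19.3 for Klf4. With same-strand peaks within 100 bases joined, the density for the 5 genes was 2.63 per 100 kb. Klf4 then had 1 peak, as Sox2 did, so its first place rests on 1 stretch being split into 3 peaks. The genome, from the first to the last peak of each autosome and chromosome X, was also cut into stretches of 45 kb, close to the window of the shorter genes. Of these stretches 7.62% had a plus-strand peak, as the windows of Pou5f1, Nanog and Sox2 did, and 7.25% had a minus-strand peak, as that of Klf4 did. Peaks on both strands, found at Nanog, were in 1.02%. For Esrrb the stretches measured 200 kb, and 22.4% had a plus-strand peak, 21.7% a minus-strand peak and 8.83% both. Most stretches hold no peak at all. Among the 45 kb stretches with a peak on either strand, the plus-strand share was 55.1% and the minus-strand share 52.3%. The stretches take no notice of genes, so how the 5 genes stand among transcribed genes was not tested. Both backgrounds count all sequence between the first and last peak, including any where no peak could be called. The genes were chosen with earlier results of these data known, so the density and its interval are descriptive only.

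Peaks near the 5 genes were wide. Their median width was 1040 bases (95% interval from binomial ranks 641 to 2048), with quartiles of 644 and 1943, against 335 bases (330 to 343) with quartiles of 202 and 572 over the other 12041 peaks. The ratio of the medians was 3.10. The other peaks were not limited to genes, so how these widths stand among peaks in transcribed genes was not tested. The median was 1569 bases with same-strand peaks within 100 bases joined, and 741 bases with a limit of 50 kb. Of the 12 peaks, 10 exceeded the upper quartile of the other peaks, and 6 exceeded 1000 bases, as 8.25% of the other peaks did. The second Esrrb sense peak was among the widest 0.440% of all peaks, the Nanog antisense peak among the widest 0.680%, the first Esrrb sense peak among the widest 1.29% and the Sox2 peak among the widest 1.49%. Both antisense peaks were over 1000 bases, so the peaks on the opposite strand were not the narrow ones. The exceptions were the first Klf4 peak and the downstream Pou5f1 peak, of 313 and 322 bases, which were narrower than the median. The length of the bound RNA, the depth of the library and the threshold of the peak caller all bear on width, and they cannot be told apart from the lists.

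**Figure D4:**
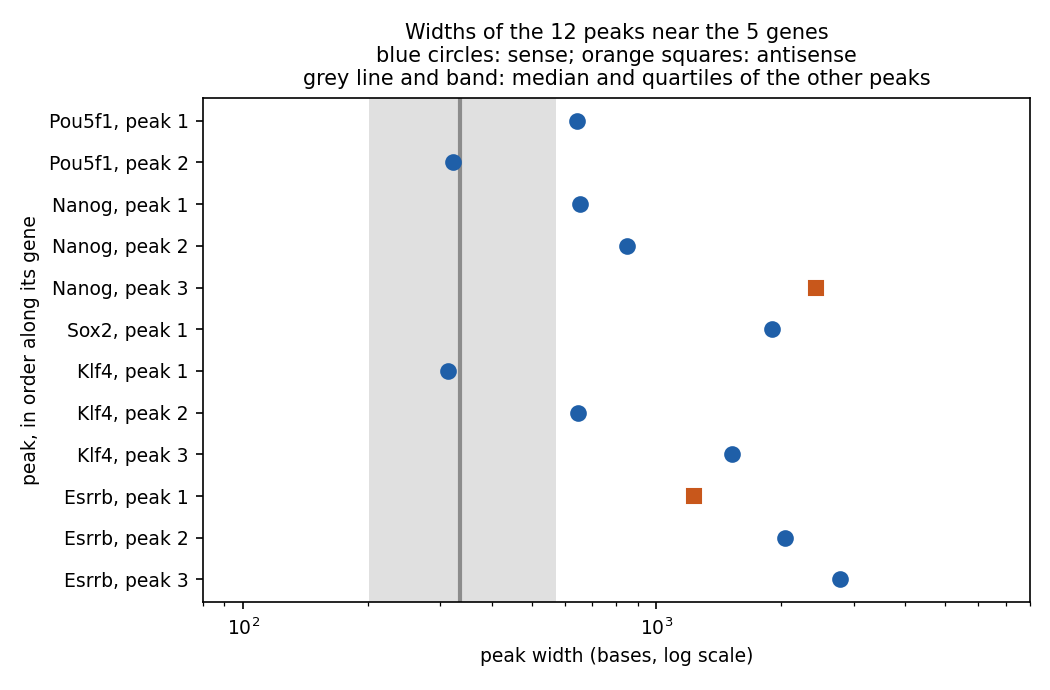
Each row is 1 of the 12 peaks, numbered along its gene, with its width in bases on a log scale; blue circles are sense and orange squares antisense. The grey line and band are the median of 335 bases and the quartiles of 202 and 572 bases of the other peaks, and 10 of the 12 points lie to the right of the band.

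Neighbouring peaks on the opposite strand were found at 2 of the 5 genes. In all, 5 of the 12 peaks had an opposite-strand peak within 20 kb, 3 at Nanog and 2 at Esrrb, and 14.1% of all peaks did. Members of 1 gene share their neighbours, so these 5 peaks stand for 2 places. A same-strand neighbour within 20 kb was found for 6 of the 12, 3 at Klf4 and 3 at Nanog, close to the 50.4% of all peaks. The 2 Pou5f1 peaks, 20093 bases apart, missed this limit narrowly.

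With 1 library there are no replicates, so no test was made. The intervals of the sense share and of the densities cover counting error only. Those of the median widths cover only the spread of widths among peaks. All of these intervals also treat peaks as independent, although several peaks lie in the same gene. The control library was not compared, so how much of each peak would be present without tagged YY1 is not known. Pou5f1 and Nanog have related copies elsewhere in the genome. The RefSeq table names 6 such entries for Pou5f1 and 2 for Nanog, and no source used here says how reads matching several places were treated, so the source of reads within these 2 genes is uncertain.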

How the data were processed

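Per the labels' protocols, RNA crosslinked to tagged YY1 was captured from nuclei and copied into cDNA. The authors deposited 2 peak lists for this library, 1 per genome strand, with 3 columns (chromosome, start, end) and no score. The submitters' processing notes name cutadapt, Bowtie, Bowtie2, SAMtools and the build mm9. The peak caller, its threshold and any use of the control were not stated in any source used here. Starts were made 1-based. Gene spans in mm9 were part of the rule that chose the genes, and the genes and settings were chosen with earlier results of these data known. All 12 peaks are named.

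A peak sharing 1 base with a span was counted as within it, otherwise as upstream or downstream in the gene's direction. RefSeq tables of GRCm38.p6 served only for sequences, gene names and gene order. Further pluripotency genes and feeder markers were not placed, for want of mm9 spans. The classing code was checked on simulated data, where all 300 peaks planted within the limit were found and 0 of 100 beyond it. The planted peaks were isolated and placed by the same position rules, so this checked the code only. Counting used pandas 2.3.3 and numpy 2.4.6 in Python 3.11.15, intervals scipy 1.17.1, and plots matplotlib 3.10.9. Alternatives were other limits (5 and 50 kb), the wider 50% of peaks, peaks joined within 100 bases, midpoints, swapped strand names, the genes without Esrrb, and stretches holding a peak.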

Additional observations from a re-analysis of the deposited data

How the results depend on the processing

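Of 47 values under 8 alternative settings, 5 moved out of the interval of the main value, or by over 1.5 times for a count, 1 reversed, and the other 41 did neither. Much of this was fixed by the settings, so the tally does not measure how firm the results are. Peaks inside a gene span are counted under every limit, and swapped strand names must reverse the sense share. Leaving out empty stretches must raise the share of stretches with a peak. Reading each list as the strand opposite to its name turned the sense share to 16.7%. With a limit of 5 kb, 1 gene had an antisense peak, since the one near Nanog was left out. Among stretches with a peak on either strand, the share with a plus-strand peak was 55.1% at 45 kb and 63.5% at 200 kb, and with a minus-strand peak 52.3% and 61.5%, since empty stretches were left out. With a limit of 50 kb the sense share was 66.7% of 15 peaks and the median width 741 bases, and with joined peaks the median width was 1569 bases. All 5 genes had a sense peak, and the upstream count was 0, at limits of 5 and 50 kb, with the wider 50% of peaks, with joined peaks and by midpoints. No paired analysis was possible because there is only 1 library with files. The lists give no depth, and the lack of a peak does not show that no RNA was bound.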
